A study of Homo sapiens with 6 samples.

Results

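The genes described here are ANGPTL7, STK32A, ADHFE1, RFTN2, PRUNE2 and FSTL1, 6 of 18417 genes measured in WM164, a human melanoma cell line from a lymph node metastasis with mutant BRAF. They were chosen by the difference between drug-tolerant and parental cells, among the highest measured, and share no gene family, so that difference is given below as a description with no test. They were found as probe sets (groups of array probes summarised to 1 value) whose platform annotation gives exactly 1 gene symbol. All 6 were found, on 7 probe sets, and a gene with several was represented by its brightest set, averaged across all 6 arrays. The Parent group is WM164 given the vehicle DMSO (3 arrays), and the length of that treatment was not found in the labels. The IDTC group (induced drug tolerant cells) is WM164 kept for 16 days in 500 nM PLX4032, the BRAF inhibitor vemurafenib, with drug medium renewed every 3 days (3 arrays). Every array thus comes from 1 cell line, and nothing in the labels says that the replicates were separate experiments, so a p-value here reflects only how far these samples spread, which may be technical.

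The 6 genes act in different parts of the cell. ANGPTL7 encodes a secreted angiopoietin-like protein with a fibrinogen-like domain, studied mostly in the outflow tissue and cornea of the eye. FSTL1 encodes a secreted glycoprotein with a follistatin domain that binds BMP ligands and restrains their signalling. STK32A encodes a serine/threonine kinase of the AGC group whose substrates are poorly known. RFTN2 encodes a raftlin, a membrane protein of lipid rafts. PRUNE2 encodes a large protein with a BCH domain, a module through which proteins bind other proteins. ADHFE1 encodes a mitochondrial transhydrogenase that oxidises gamma-hydroxybutyrate to succinic semialdehyde while it reduces 2-oxoglutarate to D-2-hydroxyglutarate.

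The promoter windows of 4 of the 6 genes are shown because the levels of these genes differed in the same direction, and to set apart start sites rich and poor in CpG dinucleotides. Each window runs from 250 bases before to 50 bases after a RefSeq transcript start (GRCh38.p14), printed 5′ to 3′ on the gene's strand, and PRUNE2 has 2 such starts. Capitals mark matches to 8 searched motifs. These are the M-box CATGTG, the E-box CACGTG, the AP-1 motif TGANTCA, the forkhead motif GTAAACA, the TEAD core GGAATG, the SOX motif ACAAAG, the TFAP2 motif GCCNNNGGC and the TATA box TATAAA, searched on both strands. The windows are chr1:11189105-11189404 (plus strand) for ANGPTL7, chr2:197675538-197675837 (minus strand) for RFTN2, chr9:76906065-76906364 and chr9:76692148-76692447 (both minus strand) for the PRUNE2 starts, and chr3:120450943-120451242 (minus strand) for FSTL1.
ANGPTL7: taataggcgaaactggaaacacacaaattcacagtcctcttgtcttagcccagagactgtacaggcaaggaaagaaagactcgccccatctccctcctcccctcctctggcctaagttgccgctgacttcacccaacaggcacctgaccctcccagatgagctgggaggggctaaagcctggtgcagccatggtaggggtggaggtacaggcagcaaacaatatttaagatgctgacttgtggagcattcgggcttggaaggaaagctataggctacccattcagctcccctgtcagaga
RFTN2: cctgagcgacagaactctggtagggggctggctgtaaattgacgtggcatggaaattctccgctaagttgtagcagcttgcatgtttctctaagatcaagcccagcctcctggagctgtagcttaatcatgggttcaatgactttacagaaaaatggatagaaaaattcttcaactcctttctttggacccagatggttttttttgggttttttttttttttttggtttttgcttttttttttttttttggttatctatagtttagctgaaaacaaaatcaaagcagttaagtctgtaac
PRUNE2 start 1: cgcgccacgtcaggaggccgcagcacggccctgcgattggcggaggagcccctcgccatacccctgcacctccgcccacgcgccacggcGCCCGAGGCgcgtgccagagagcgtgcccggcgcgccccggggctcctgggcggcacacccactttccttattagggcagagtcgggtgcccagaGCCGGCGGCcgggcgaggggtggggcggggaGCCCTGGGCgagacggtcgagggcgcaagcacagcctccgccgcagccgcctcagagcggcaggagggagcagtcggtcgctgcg
PRUNE2 start 2: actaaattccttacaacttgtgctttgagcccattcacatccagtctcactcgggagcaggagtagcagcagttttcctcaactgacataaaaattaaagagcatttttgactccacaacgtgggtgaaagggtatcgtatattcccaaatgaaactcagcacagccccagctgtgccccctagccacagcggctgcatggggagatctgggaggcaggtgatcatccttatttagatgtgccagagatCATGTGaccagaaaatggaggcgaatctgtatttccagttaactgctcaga
FSTL1: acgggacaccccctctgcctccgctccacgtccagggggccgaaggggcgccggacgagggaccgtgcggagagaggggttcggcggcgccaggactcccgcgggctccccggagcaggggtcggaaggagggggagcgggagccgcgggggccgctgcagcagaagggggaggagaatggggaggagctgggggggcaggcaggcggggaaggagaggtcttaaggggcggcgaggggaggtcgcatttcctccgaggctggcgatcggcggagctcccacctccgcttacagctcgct

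The windows differed in base composition. The first PRUNE2 start and FSTL1 were GC-rich, at 76.3% and 73.7% G and C with 39 and 30 CpG dinucleotides. ANGPTL7, RFTN2 and the second PRUNE2 start held 4, 3 and 5 CpG dinucleotides, at 53.3%, 37.7% and 47.0% G and C. The median of all 35116 windows was 58.7% G and C and 14 CpG dinucleotides. The longest run of T in the RFTN2 window was 16 bases. TFAP2 matches were found 3 times before the first PRUNE2 start, beginning 161, 66 and 35 bases before it, and 23.2% of all windows hold at least 1 such match. An M-box match began 1 base before the second PRUNE2 start, a motif held by 11.1% of all windows. The windows of ANGPTL7, RFTN2 and FSTL1 held none of the 8 motifs, and no motif was found in the windows of more than 1 of the genes. A match is a description of letters and not of a bound site.

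All values below are log2 expression as deposited, on which a difference of 1 is a doubling, and differences are IDTC minus Parent. For each of the 6 genes every IDTC array lay above every Parent array. The groups did not overlap for 54.1% of all genes in either direction, and IDTC lay above Parent for 25.4%, but the choice of the genes fixed this count and nothing is read from it. The difference ranged from 3.60 to 4.30 over the 6 genes (12.1-fold to 19.8-fold), where the median of all genes was -0.01. The table holds no detection call, so it is unknown whether a Parent value lay above background, and a dim Parent value would make the fold too small. In bulk RNA, more cells of a type and more RNA per cell cannot be told apart.

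**Figure D1:**
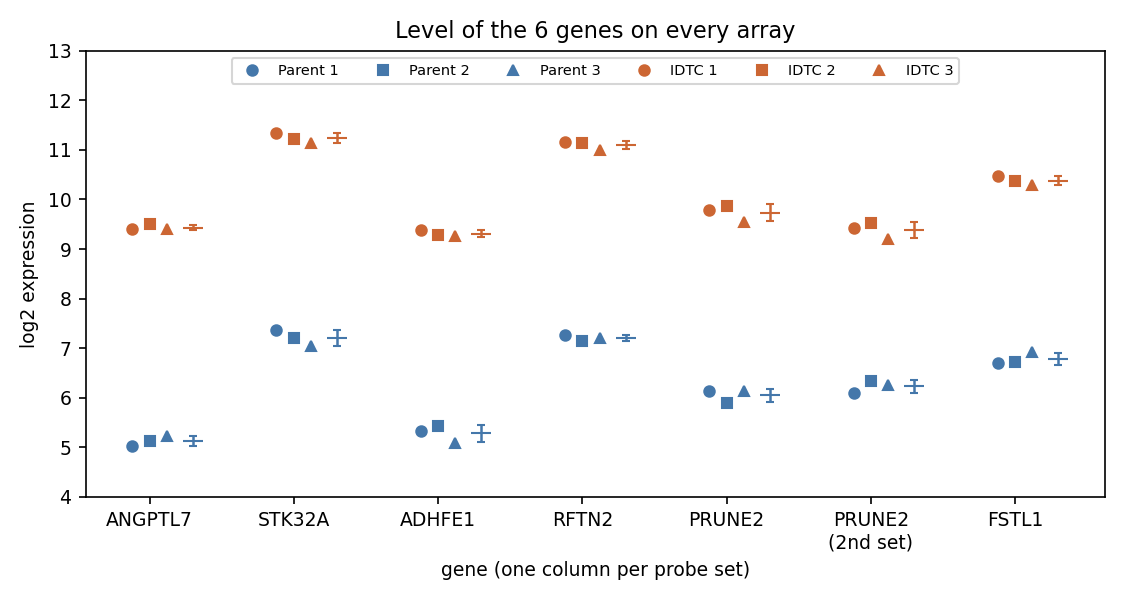
Log2 expression (vertical axis) of the 7 probe sets of the 6 genes (horizontal axis) on each array, Parent in blue and IDTC in orange, with the mean and SD of each group (n = 3) at the right of each column. The Parent points lie between 5.03 and 7.36 and the IDTC points between 9.21 and 11.34, and within each probe set the groups are apart.

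Of the 2 secreted factors, ANGPTL7 had the largest difference of any gene. Its level was 5.03, 5.13 and 5.23 on the Parent arrays and 9.39, 9.50 and 9.41 on the IDTC arrays. All 3 IDTC arrays lay at least 4.16 above the highest Parent array. The means were 5.13 ± 0.10 and 9.43 ± 0.05 (SD, n = 3), a difference of 4.30 ± 0.07 (standard error from the SDs of the groups) or 19.8-fold. FSTL1 stood at 6.71, 6.72 and 6.91 in Parent and 10.47, 10.37 and 10.30 in IDTC cells. Its groups were apart by at least 3.38, and the difference of the means was 3.60 ± 0.08 (12.1-fold).

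The kinase gene STK32A stood at 7.36, 7.21 and 7.04 on the Parent arrays and at 11.34, 11.23 and 11.14 on the IDTC arrays. Both groups spread little beside the gap of at least 3.78 between them, and the difference was 4.04 ± 0.11 (16.4-fold). The raftlin gene RFTN2 stood at 7.27, 7.15 and 7.21 in Parent and at 11.16, 11.13 and 11.004 in IDTC cells, a difference of 3.89 ± 0.06 (14.8-fold). It had the smallest Parent spread of the 6 genes, with an SD of 0.06.

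ADHFE1, the mitochondrial enzyme, stood at 5.32, 5.43 and 5.09 on the Parent arrays and at 9.38, 9.29 and 9.25 on the IDTC arrays. Parent 3 was its lowest array, and the group SD of 0.18 was the largest Parent SD of the 6 genes. The difference was 4.03 ± 0.11 (16.3-fold).

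PRUNE2 was the only one of the 6 genes with more than 1 probe set of its own. The brighter set stood at 6.13, 5.90 and 6.13 in Parent and 9.79, 9.86 and 9.54 in IDTC cells, a difference of 3.68 ± 0.12 (12.8-fold). The other set stood at 6.09, 6.35 and 6.26 in Parent and 9.42, 9.53 and 9.21 in IDTC cells, a difference of 3.16 ± 0.12 (8.91-fold). Both sets separated the groups, and the mean of the 2 sets gave 3.42. The brighter set had equal deposited values on Parent 1 and Parent 3. Equal values on at least 2 Parent arrays occurred in 9.45% of all genes, and on at least 2 IDTC arrays in 6.6%, so small SDs in these data can come from tied values.

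The arrays of the IDTC group did not contribute alike. IDTC 3 was the lowest of the 3 for 5 of the 6 genes, all but ANGPTL7, while IDTC 1 was highest for 4 and IDTC 2 for 2. IDTC 3 was also lowest for 64.0% of all genes called higher and for 77.1% of the 105 genes with a log2 difference of 2 or more, against 42.7% of all genes. On that array the middle of the distribution was also the narrowest, with quartiles of 4.86 and 8.17, against 4.70 and 8.30 on Parent 1. The part of this narrower distribution in the values of the 6 genes was not tested. Without IDTC 3 the median difference of the 6 genes was 3.996, and over all arrays left out in turn it ranged from 3.91 to 3.996.

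In the order of all genes by difference, ANGPTL7 was 1, STK32A 2, ADHFE1 4, RFTN2 6, PRUNE2 10 and FSTL1 11. The places between them were taken by SLITRK6 (4.03), TFAP2A-AS1 (3.89), ID2 (3.89), MMP2 (3.76) and BCAN (3.75). Just below FSTL1, SEMA3D at place 12 had a difference of 3.58 and CRYAB at place 13 one of 3.54. STK32A, SLITRK6 and ADHFE1 differed by less than their standard errors, as did TFAP2A-AS1, RFTN2 and ID2, and MMP2 and BCAN. The same held for PRUNE2 and FSTL1, and for FSTL1, SEMA3D and CRYAB. The places within each of these groups have no firm order. A difference of 8-fold or more upward was found for 22 genes (0.119%).

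**Figure D2:**
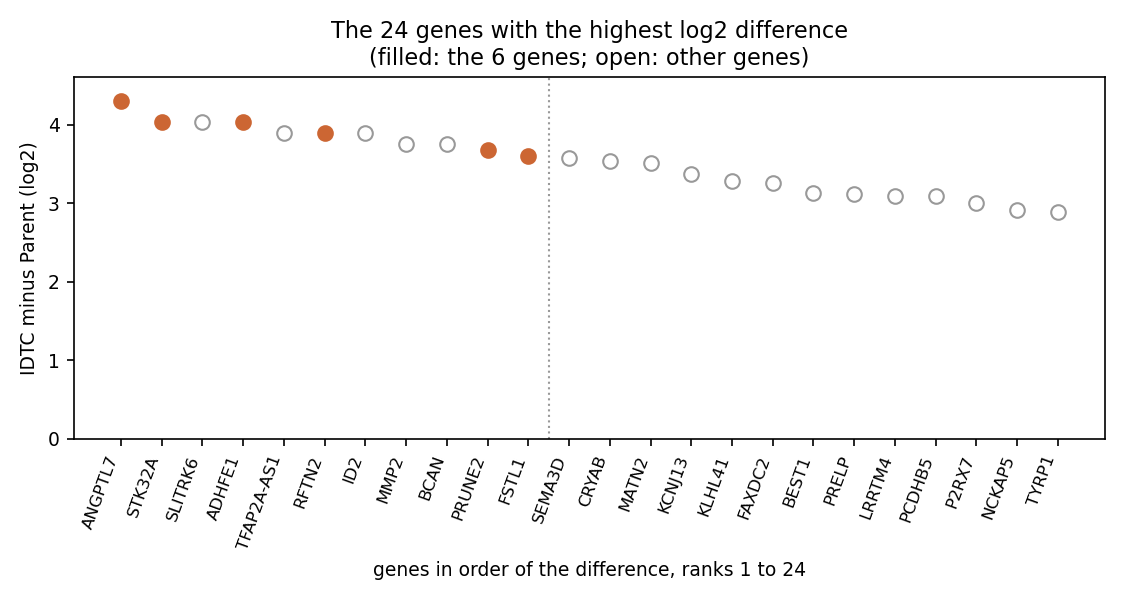
Difference between IDTC and Parent means (log2, vertical axis) of the 24 genes with the highest values, in order along the horizontal axis, the 6 genes filled, the others open, with a dotted line after FSTL1 at place 11. The values run from 4.30 for ANGPTL7, which stands apart from STK32A at 4.04, to 2.89 for TYRP1 at place 24.

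The genes with the most similar course over the 6 arrays were found by the root mean square distance (log2) between profiles after each gene's Parent mean was subtracted. With 2 groups this distance mostly measures how alike the differences are. STK32A and ADHFE1 were each other's nearest gene, at 0.08, followed by SLITRK6 at 0.08 and 0.14. ID2, the helix-loop-helix inhibitor, was nearest to RFTN2 (0.08) and MMP2, the gelatinase, to PRUNE2 (0.11). MATN2, which encodes a matrix protein of the matrilin family, was nearest to FSTL1 (0.09). ANGPTL7, with the largest difference, had its nearest gene, SLITRK6, at 0.24. Among the 6 genes the distances ran from 0.08 (STK32A and ADHFE1) to 0.50 (ANGPTL7 and FSTL1).

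Genes related to the 6 by family or role were not used to choose them and were tested with limma over all genes, where 46.6% were called (adjusted p under 0.05), 21.7% as higher and 24.9% as lower in IDTC. The words rose and fell are used for such calls. The median difference of the related lists ran from -0.16 to 0.11, beside -0.01 over all genes. Without the dimmest 40% of genes 7647 of 11050 were called, beside 8588 of all 18417. The share called in a list thus also depends on how bright its genes are, and it is not read as a trait of the family.

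Few genes related to ANGPTL7 were called. Of 16 measured angiopoietin-like, angiopoietin and fibrinogen-domain genes, 1 rose, 1 fell and 14 were not called, a share called of 12.5% beside the background of 46.6%. The median difference was -0.01, and none of the 16 changed by 2-fold. These genes were dim, with a mean over the list of 5.49 to 5.62 on the Parent and 5.45 to 5.67 on the IDTC arrays. The medians of whole arrays ran from 6.25 to 6.36. The part of this dimness in the low share called was not tested. ANGPTL4, ANGPTL6 and ANGPTL8 differed by -0.07 ± 0.07, 0.18 ± 0.09 and -0.03 ± 0.09 (standard error of the fit), and ANGPTL5 by 0.04 ± 0.05. ANGPTL5 was equal on the 3 Parent arrays and IDTC 2, at 3.36. The called genes were FIBCD1, an acetyl-binding receptor with a fibrinogen domain (fell by 0.47 ± 0.13, adjusted p = 0.0185), and the fibrinogen-like FGL2 (0.33 ± 0.09, adjusted p = 0.0187). The first call was lost without Parent 2, Parent 3, IDTC 1 or IDTC 2 and the second without Parent 1 or Parent 3, so that none was left without Parent 3.

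STK32B, a kinase gene of the same family as STK32A, was lower in IDTC cells. STK32B stood at 9.28, 9.26 and 9.24 on the Parent arrays and at 7.11, 6.96 and 7.06 on the IDTC arrays. It fell by 2.22 ± 0.06 (4.64-fold lower, adjusted p = 3.6e-07), the largest change among 46 AGC kinases. All 3 IDTC arrays lay below every Parent array, and the groups did not overlap for 54.1% of all genes in either direction. STK32C stood at 7.13 ± 0.02 in Parent and 6.92 ± 0.13 in IDTC cells, which limma did not call, and it passed the threshold as lower when IDTC 3 was left out (-0.28), when the arrays were re-centred (-0.22) or without the dimmest genes. Over the AGC list 12 rose and 14 fell (56.5% called beside 46.6% over all genes, median -0.03). RPS6KA1 and RPS6KA3, which encode ribosomal S6 kinases that ERK activates, fell by 1.75 ± 0.06 (3.35-fold lower, adjusted p = 9.7e-07) and 1.34 ± 0.09 (2.53-fold lower), while RPS6KA2 of the same kind rose by 1.26 ± 0.09 (2.39-fold). Of the other S6 kinase genes in the list, RPS6KA4, RPS6KA5 and RPS6KB2 fell by 0.23 ± 0.07, 0.51 ± 0.12 and 0.58 ± 0.06. The RPS6KA4 call was lost after quantile normalization and on leaving out any array but IDTC 3. RPS6KA6 and RPS6KB1 were not called (0.12 ± 0.06 and -0.08 ± 0.05).

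The enzymes around the substrates and products of ADHFE1 moved in both directions. ABAT, the GABA transaminase that supplies succinic semialdehyde, stood at 6.10, 6.24 and 6.26 in Parent and 8.07, 7.85 and 7.92 in IDTC cells and rose by 1.75 ± 0.08 (3.36-fold, adjusted p = 2.4e-06). ALDH5A1, which oxidises succinic semialdehyde to succinate, was called at the edge of the threshold (fell by 0.23 ± 0.08, adjusted p = 0.046), a call lost without Parent 1, Parent 2, IDTC 1 or IDTC 2, with a replicate block and with an intensity trend. D2HGDH, which removes D-2-hydroxyglutarate, was not called (0.18 ± 0.08). The serine synthesis gene PHGDH rose by 0.64 ± 0.05, while IDH3A, a subunit of the mitochondrial isocitrate dehydrogenase, fell by 1.22 ± 0.05 and the citrate carrier gene SLC25A1 fell by 0.68 ± 0.06. In all, 4 of 22 measured genes rose and 9 fell (59.1% called beside 46.6% over all genes, median -0.12). Without Parent 2 the number called dropped from 13 to 8.

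Of the other raftlin, RFTN1, the brighter probe set stood at 6.05, 6.15 and 6.03 in Parent and at 6.53 on all 3 IDTC arrays, and it rose by 0.45 ± 0.06 (adjusted p = 3.6e-04). The mean of its probe sets differed by 0.14 and was not called. Among 30 genes of lipid rafts and caveolae 6 rose and 13 fell (63.3% called beside 46.6% over all genes, median -0.16). The 2 flotillins, scaffold proteins of rafts, went opposite ways, with FLOT1 higher by 0.94 ± 0.06 and FLOT2 lower by 0.71 ± 0.05. FLOT2 had equal values on the 3 Parent arrays, at 8.82. The raft adaptor genes were split as well. LAT, known from T cells, fell by 1.39 ± 0.09, and PAG1, which recruits the kinase CSK, rose by 1.00 ± 0.05. CAVIN3, a caveola coat gene, fell by 1.30 ± 0.06, and TLR4, a receptor that signals from rafts, by 1.19 ± 0.08. CAVIN3 had equal values on the 3 IDTC arrays, at 9.10.

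PRUNE1, the shorter relative of PRUNE2, rose by 0.46 ± 0.08 (adjusted p = 0.0030), from 8.32, 8.17 and 8.30 to 8.87, 8.71 and 8.59. BNIP2, another BCH domain gene, stood at 8.85, 8.74 and 8.60 in Parent and 8.62, 8.74 and 8.43 in IDTC cells and was not called (-0.13 ± 0.10).

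Of 16 follistatin and SPARC domain genes related to FSTL1, 6 rose, none fell and 10 were not called (median 0.11). The share called was 37.5%, beside 46.6% over all genes, of which 21.7% rose and 24.9% fell. With 16 genes, nothing is read from the lack of lower calls. SPOCK1, a matrix proteoglycan gene, rose by 1.27 ± 0.10 (2.41-fold) and FSTL5 by 1.08 ± 0.13, from 3.53, 3.48 and 3.51 to 4.84, 4.62 and 4.29, low values on these arrays. The activin antagonist genes FSTL3 and FST rose by 0.56 ± 0.07 and 0.38 ± 0.06, and SPARC by 0.22 ± 0.05. FSTL4 was not called (0.13 ± 0.06).

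Among 29 genes of FSTL1 partners and BMP signalling 13 rose and 6 fell (65.5% called beside 46.6% over all genes, median 0.10). The 3 DIP2 genes, of which DIP2A encodes a proposed FSTL1 receptor, all rose, DIP2C by 0.99 ± 0.08, DIP2B by 0.65 ± 0.06 and DIP2A by 0.43 ± 0.06. DIP2A had equal values on the 3 IDTC arrays, at 7.45. BMP4, a ligand that FSTL1 binds, averaged 4.96 ± 0.05 on Parent arrays and 4.86 ± 0.09 on IDTC arrays, a difference that was not called but passed the threshold as lower after quantile normalization (-0.18). ID2 rose from 7.62, 7.32 and 7.36 to 11.45, 11.24 and 11.26, and ID3 rose by 2.52 ± 0.05, both transcriptional targets of BMP signalling, and SMAD9, a BMP-receptor SMAD, rose by 1.32 ± 0.07. ID3 had equal values on the 3 Parent arrays, at 7.52. The pseudoreceptor gene BAMBI, which blunts BMP signalling, fell by 1.35 ± 0.05, and TLR4, another proposed partner, fell as given above, while its co-receptor gene CD14 was not called (-0.11 ± 0.08). The other genes of the list that fell were BMP6 (by 0.47 ± 0.10), SMAD7 (0.29 ± 0.07), ID4 (0.28 ± 0.05) and BMPR1B (0.27 ± 0.08). Whether BMP signalling itself differed was not tested.

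**Figure D3:**
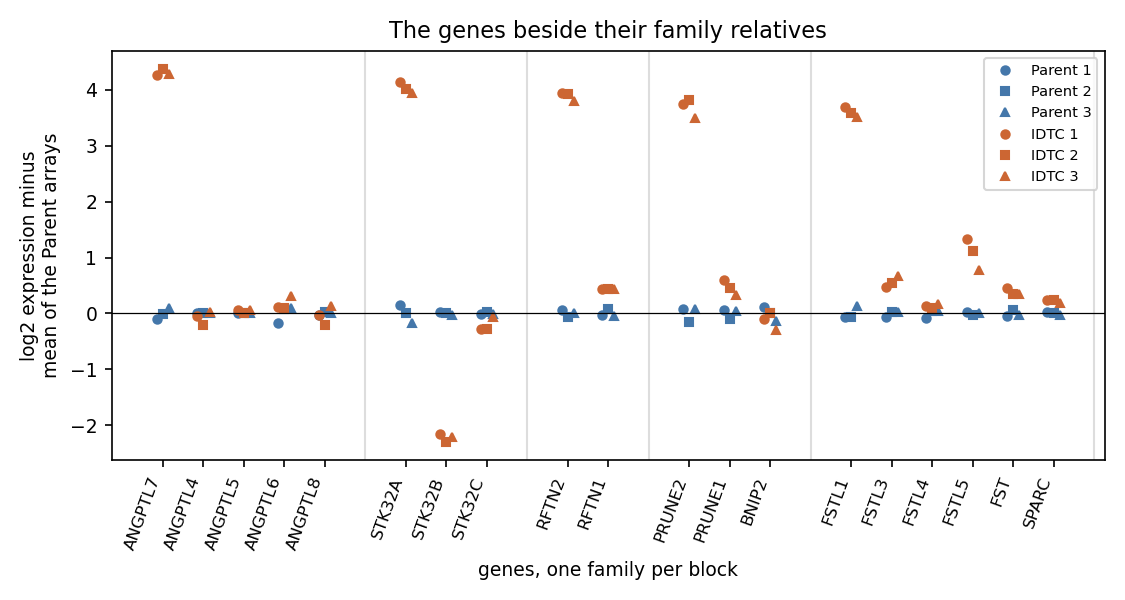
Log2 expression minus the gene's mean over the Parent arrays (vertical axis) for 5 of the 6 genes and their family relatives (horizontal axis, 1 family per block), Parent arrays in blue and IDTC arrays in orange. The first gene of each block was chosen by this difference and so lies above all its relatives on the IDTC arrays. STK32B averages -2.22 there.

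**Figure D4:**
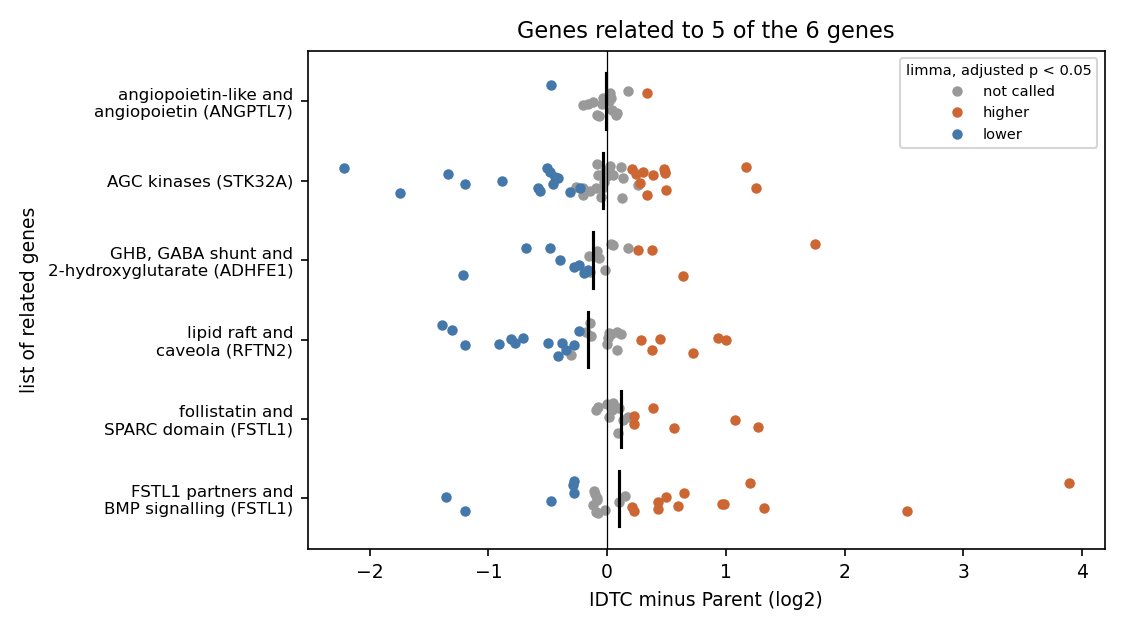
Difference between IDTC and Parent (log2, horizontal axis) of each gene in 6 lists of related genes (vertical axis), with genes called higher in orange, lower in blue and not called in grey, and the list median as a black bar. The medians lie within 0.16 of 0, and the angiopoietin-like list is nearly all grey.

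The genes next to the 6 on their chromosomes give another measure that did not choose them. Among the 5 measured genes on each side, 60 in all, 15 rose and 15 fell, with 30 left uncalled and a median of 0.02, near the background of 46.6%. The words next to, beside, behind and flanking refer to measured genes, and genes that were not measured can lie between. The counts by gene rest on 10 neighbours each, so nothing is read from how they differ. Beside ANGPTL7 6 of 10 genes rose and none fell (60% called beside 46.6% over all genes). ANGPTL7 lies within the span of MTOR, which encodes the growth-regulating kinase, and MTOR rose by 0.49 ± 0.06 (adjusted p = 5.1e-04), from 9.74, 9.56 and 9.63 to 10.16, 10.16 and 10.09. On the other side DISP3 rose by 0.46 ± 0.09, and behind it the F-box genes FBXO2, FBXO44 and FBXO6, which encode glycoprotein-binding or related ubiquitin ligase subunits, rose by 0.54 ± 0.10, 0.81 ± 0.08 and 0.35 ± 0.08. Each of these values was under 1, beside 4.30 for ANGPTL7, which was chosen by its difference.

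Both genes flanking STK32A rose. DPYSL3, a regulator of the growing axon's cytoskeleton whose RefSeq span overlaps that of STK32A, rose from 6.63, 6.77 and 6.83 to 8.96, 8.71 and 8.61, by 2.02 ± 0.10 (4.05-fold, adjusted p = 4.0e-06). PPP2R2B, a regulatory subunit of the phosphatase PP2A, stood at 6.89, 6.90 and 6.80 in Parent and 8.39, 8.46 and 8.25 in IDTC cells and rose by 1.51 ± 0.07 (2.84-fold, adjusted p = 3.0e-06). For both, the groups did not overlap, as for 54.1% of all genes in either direction. Of the 10 genes around STK32A 3 rose and 2 fell (50% called beside 46.6% over all genes). The third rise, that of SCGB3A2 (0.34 ± 0.09), was lost without Parent 2 or IDTC 1.

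The measured genes nearest to RFTN2 fell on both sides. They were HSPE1, the mitochondrial co-chaperonin gene, which fell by 1.26 ± 0.07, and MARS2, the mitochondrial methionyl-tRNA synthetase gene, which fell by 1.13 ± 0.07. HSPD1, the chaperonin partner of HSPE1, lies behind it and fell by 1.35 ± 0.06 (2.55-fold). PLCL1 rose by 1.31 ± 0.09, from 4.66, 4.82 and 4.69 to 6.04, 6.18 and 5.88. In all, 3 of the 10 genes rose and 5 fell (80% called beside 46.6% over all genes).

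Around the remaining genes the neighbours were mixed or not called. Next to ADHFE1, the ribosome biogenesis gene RRS1 fell by 1.31 ± 0.06 and VXN rose by 0.42 ± 0.13, the latter call being lost without Parent 2, Parent 3, IDTC 1 or IDTC 2, and MYBL1 fell by 1.14 ± 0.13. Around PRUNE2, 4 of 10 fell and none rose (40% called beside 46.6% over all genes). Those that fell included RFK, the riboflavin kinase gene beside PRUNE2 (by 0.30 ± 0.05), and CARNMT1 (by 1.24 ± 0.17). FOXB2, on the other side of PRUNE2, differed by -0.02 ± 0.07. Beside FSTL1, neither LRRC58 (-0.12 ± 0.07) nor NDUFB4 (-0.12 ± 0.06) was called, and PLA1A, a phospholipase gene at the fifth place, fell by 1.83 ± 0.08. Over the 12 nearest genes 5 rose, 4 fell and 3 were not called, where 21.7% of all genes rose and 24.9% fell. With 12 genes, nothing is read from this.

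**Figure D5:**
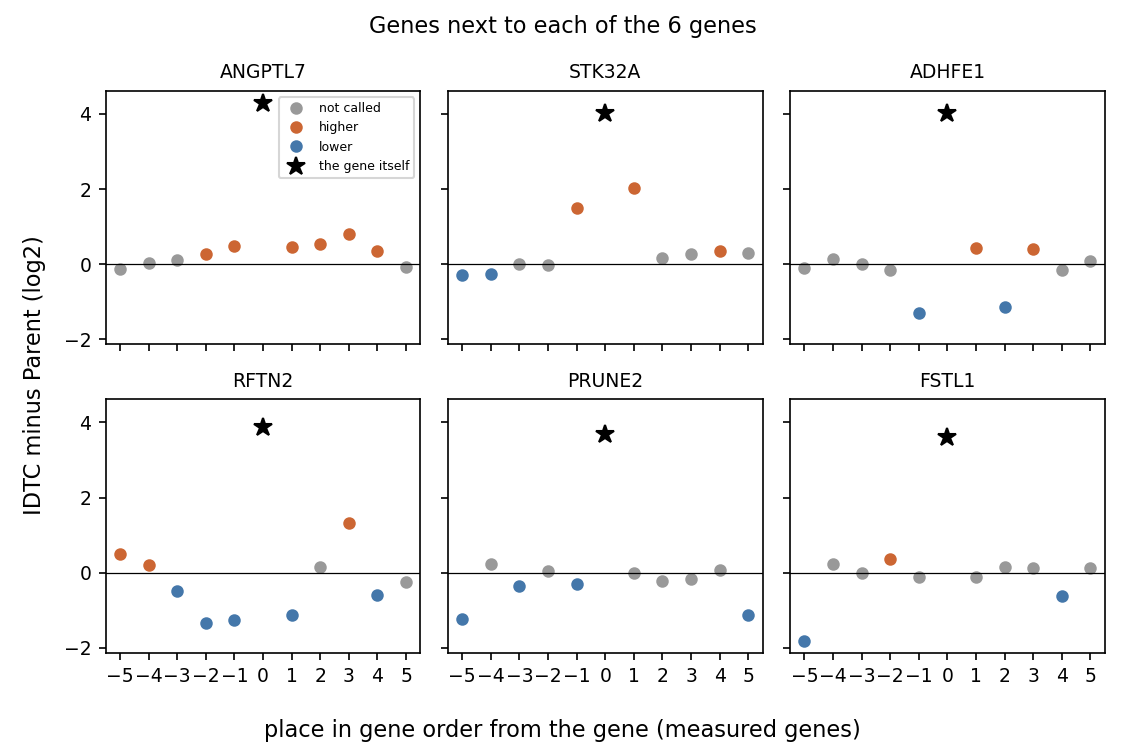
Difference between IDTC and Parent (log2, vertical axis) of the 5 measured genes on each side of each of the 6 genes, by place in gene order (horizontal axis), called higher in orange, lower in blue and not called in grey, with the gene itself as a star. The star stands above every neighbour in all 6 panels, which follows from the choice of the 6 genes by this difference. Both nearest neighbours lie above 0 beside ANGPTL7 and STK32A and below 0 beside RFTN2, PRUNE2 and FSTL1, where FOXB2, LRRC58 and NDUFB4 were not called.

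ANGPTL7 and FSTL1 are also made by stromal cells, so markers of other cell types were measured beside them. Over all genes 46.6% were called, 21.7% as higher and 24.9% as lower. Among the 12 genes that mark fibroblasts, 2 rose and 2 fell while 8 did not pass (33.3% called). Their summed log2 level was 67.1 to 68.5 on the Parent and 67.1 to 67.7 on the IDTC arrays. LUM, a matrix proteoglycan gene, fell by 0.89 ± 0.14 (8.11 ± 0.18 to 7.21 ± 0.25, adjusted p = 0.0014) and the receptor gene PDGFRA by 0.28 ± 0.06. FAP rose by 0.26 ± 0.08 and ACTA2 by 0.32 ± 0.11, though the ACTA2 arrays of the groups overlapped and its call was lost under 9 alternatives, among them leaving out any array but IDTC 3. The FAP call was lost after quantile normalization and without Parent 1, Parent 2, IDTC 1 or IDTC 2. The matrix genes COL1A1, COL3A1 and DCN were not called and differed by -0.03 ± 0.12, 0.01 ± 0.07 and 0.08 ± 0.07. None of 12 endothelial or 8 keratinocyte markers was called by limma (0 had an unadjusted p under 0.05). Of 13 immune markers 1 rose and 3 fell (30.8% called). Their summed log2 level was 77.5 to 78.2 on the Parent and 71.5 to 73.0 on the IDTC arrays. LYZ, the lysozyme gene, fell by 3.03 ± 0.09 (8.15-fold lower), FCER1G, an Fc receptor subunit gene, by 2.13 ± 0.12 (4.37-fold lower) and CD68 by 0.76 ± 0.05, while the B cell gene MS4A1 rose by 0.37 ± 0.12 at values of 3.62 to 4.36, a call lost after quantile normalization and on leaving out any array but IDTC 1. The part of these markers in the levels of the 6 genes was not tested. The melanocyte lineage markers PMEL and MLANA had high values in both groups, with PMEL at 12.52 ± 0.02 and 13.40 ± 0.04 and MLANA at 10.94 ± 0.03 and 12.39 ± 0.05. Of the 11 such markers 9 rose, MITF was not called, and S100B fell by 0.85 ± 0.07 (11.02 to 10.17), a share called of 90.9%. Of 6 Schwann and glial markers 4 rose, among them MBP by 2.71 ± 0.06, and 1 fell, CDH19 by 0.55 ± 0.08 (83.3% called). On these arrays no marker reads 0, so absence cannot be shown from the values. Arrays of 1 group correlated at r = 0.995 to 0.998 over the genes while pairs drawn from both groups gave r = 0.953 to 0.957, and genes are not independent replicates.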

How the data were processed

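RNA of 6 WM164 samples was measured on whole-transcript expression arrays, 3 per group, grouped by sample title. The deposited values are log2 expression per probe set, normalized by the authors. Per the submitters' processing notes the tools were Affymetrix Expression Console, RMA and Partek 6.6, and the role of each, the centring and the genome build are not given in the sources used here. Deposited were 33297 probe sets, of which 19460 had 1 gene symbol in the platform annotation, 1754 several and 12083 none. The number of arrays limits the precision. Array medians ran from 6.25 to 6.36.

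Differences were fitted with limma 3.58.1 in R 4.3.3 (lmFit, eBayes, 2-sided, no covariates, no filter) over 18417 genes, 1 probe set a gene, with Benjamini-Hochberg adjustment. The procedure was also run on simulated data. Their noise was normal and independent between arrays, without the tied values seen here, and the outcome is not given. Neighbours come from RefSeq gene order (GRCh38.p14) and promoters from RefSeq. The 6 genes and all lists were chosen with earlier results of these data known. Named by rule were up to 4 called genes of largest change per list and neighbourhood (2 where none was called), flanking genes, the 3 nearest profiles per gene, and the genes at places 12 and 13. Others, mostly family relatives, FSTL1 partners and markers, were chosen after their values were seen. Comparisons of protein sequence were planned and not made. The list of genes related to PRUNE2 is not reported here. Alternatives were another scaling, a filter on dim genes, the mean of probe sets, an intensity trend, a replicate block, leaving out each array, and 3 or 8 neighbours.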

Additional observations from a re-analysis of the deposited data

How the results depend on the processing

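The difference of each of the 6 genes stayed positive under all 12 alternatives to which it was put. The choice of the genes by the size of this difference fixed that outcome, and nothing is read from it. The difference moved by more than the SD between replicates only for PRUNE2, to 3.42 with the mean of its probe sets. The median difference of the 6 ranged from 3.91 to 3.996. The number of genes called ranged from 7375 to 9077 around 8588. Of the 16 angiopoietin-like genes, 1 was called without the dimmest 40% of genes, with 4 left to test, and 0 to 2 when an array was left out. The ADHFE1 list had 8 to 13 called genes with an array left out. With 3 neighbours on each side, 19 of 36 genes were called, fewer because fewer were tested. Every other count stayed within 1.5 times its value.

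Sample numbers recur in both groups, and deviations from the group means correlated at 0.31, -0.19 and 0.26 across genes for arrays of like number. Arrays of unlike number gave -0.47 to 0.37, a range that holds these values. Deviations within a group of 3 arrays depend on each other, so it is unknown whether the numbers pair the samples. With the number as a replicate block 8855 genes were called. Tied values and 4 residual degrees of freedom limit single-gene errors, and the deposited values carry no measure of signal over background.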
